A study of Mus musculus with 8 samples.

Results

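The genes described here are 9 genes of the liver X receptor (LXR) system and of sterol export, chosen by name: the receptor genes Nr1h2 and Nr1h3, the transporter genes Abca1, Abcg1, Abcg5 and Abcg8, the ubiquitin ligase gene Mylip, and the cholesterol esterification genes Soat1 and Soat2. A probe set that the platform annotation assigns to exactly 1 gene was found for 6 of the 9, among 30627 genes measured in all. Nr1h2, Soat1 and Soat2 are not analysed here. Liver RNA came from 8 male C57BL/6 mice that had all eaten a high fat diet for 13 weeks. All then had 5 intraperitoneal injections, of anti-miR-128-3p in 4 mice and of a control in the other 4. An anti-miR is a short antisense strand that binds a mature microRNA and blocks it. The control injection is named a vehicle in one label field and simply a control in the design text, and one treatment field names the microRNA instead of its inhibitor, so the groups follow the sample titles. Each array was taken as 1 mouse from its numbered title, which does not state it outright. No age, dose or interval between the last injection and the collection of liver is given in the sources used here.

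LXRs are nuclear receptors that bind oxysterols, pair with retinoid X receptors (RXRs) on DNA and switch on genes that remove cholesterol when cells hold too much of it. In the liver ABCA1 passes cholesterol to apolipoprotein A-I at the sinusoidal face, while ABCG5 and ABCG8 form a heterodimer that secretes sterols into bile. MYLIP, also called IDOL, is an LXR-induced ligase that marks lipoprotein receptors for degradation. Abca1, Abcg1 and Rxra have been described as targets of miR-128 in earlier work, which is why these genes are read here against its inhibitor.

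The mature microRNA that the inhibitor pairs with is shown first, with its seed, bases 2 to 8, in capitals. RefSeq (GRCm38.p6) lists the same 21-base sequence from Mir128-1 at chr1:128202404-128202424 on the plus strand and from Mir128-2 at chr9:112118644-112118664 on the minus strand.
mmu-miR-128-3p: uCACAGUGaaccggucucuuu
No transcript sequence was used here, so seed matches in the transcripts of these genes were not examined.

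Measured signals of these genes differed little between the groups. Of the 6 genes measured, 5 had a lower mean after treatment. The median of their log2 differences (treated minus control) was -0.15, whereas 50.9% of all 30627 genes were lower and the median over all genes was -0.0017. Without treated replicate 4 the median of the 6 was -0.06. None of the 6 passed limma's test at a Benjamini-Hochberg adjusted p under 0.05, and neither did any other gene, so the background share called is 0%. At an unadjusted p under 0.05, limma called 1 of the 6, Mylip, which was lower, against 3.37% of all genes called lower, 4.26% called higher and 7.63% in either direction. In none of the 6 did the groups separate without overlap, where 1.89% of all genes did so with treated livers lower and 2.52% with treated livers higher. With 4 arrays a group, the number of livers limits the precision of each value.

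**Figure D1:**
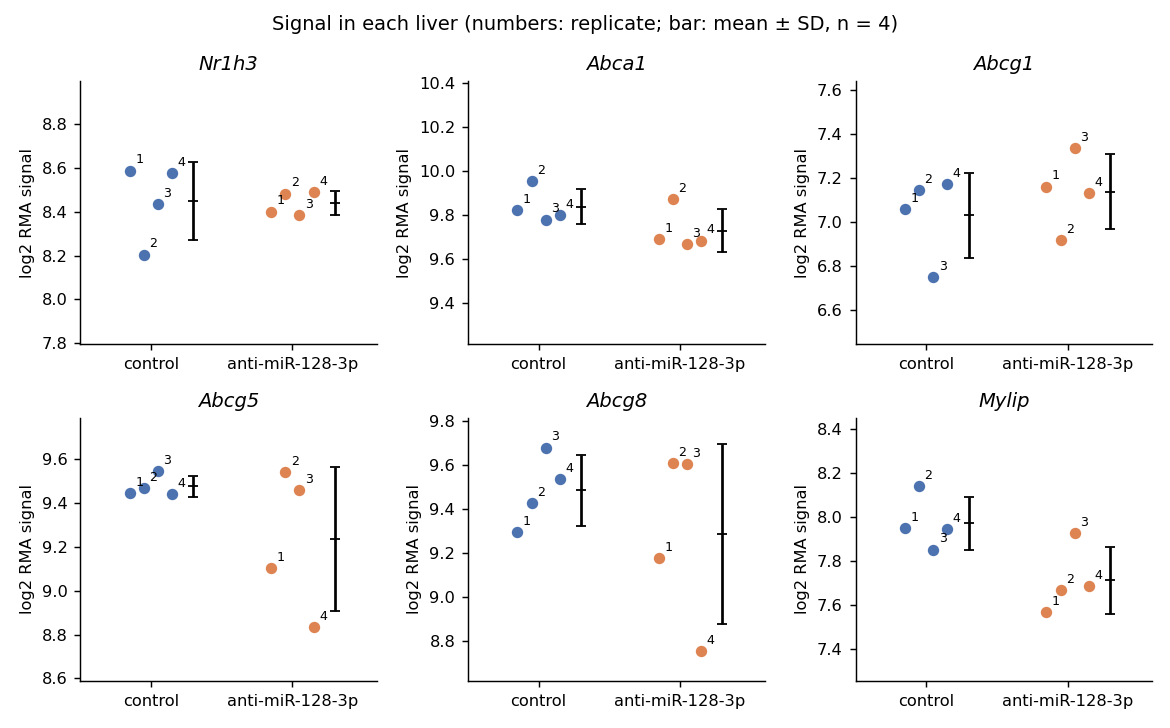
Log2 RMA signal (y axis, spanning 1.2 log2 units in each panel) of the 6 measured genes in each liver, by group on the x axis. Points are livers numbered by replicate and bars are mean ± SD (n = 4). Mylip and Abca1 lie mostly lower in treated livers, and in Abcg5 and Abcg8 treated replicates 1 and 4 lie below all 4 controls while treated replicates 2 and 3 lie among them.

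The receptor itself came first. Nr1h3 (chromosome 2, 91184061 to 91202829, GRCm38.p6 for all gene positions) encodes LXR alpha, the LXR form most abundant in liver. Its log2 signal was 8.59, 8.20, 8.43 and 8.58 in control replicates 1 to 4 and 8.40, 8.48, 8.39 and 8.49 in treated replicates 1 to 4. Every treated liver lay inside the range of the controls. The difference was -0.01 ± 0.08 (log2, ± limma's SE), with a 95% interval from -0.20 to 0.18 (limma adjusted p = 0.990). The means were 8.45 ± 0.18 in control and 8.44 ± 0.05 in treated livers (SD, n = 4 each). The sign of the estimate changed when control replicate 1 or 4 or treated replicate 1 or 3 was left out.

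The partners and cofactors of the receptor were read from a list of 14 genes, of which 11 were measured. Of these, 8 were lower and 3 higher, with a median log2 difference of -0.02, and 0 passed limma's adjusted or unadjusted threshold. Rxra, the RXR that pairs with LXR in hepatocytes and a described miR-128 target, had mean log2 signals of 9.99 ± 0.11 in controls and 9.94 ± 0.07 after treatment (SD, n = 4 each). Its difference was -0.05 ± 0.06 (limma adjusted p = 0.913), with a 95% interval from -0.20 to 0.09. The smallest p-values of the list belonged to the coactivator gene Ncoa6 (-0.09 ± 0.06), the corepressor subunit gene Tbl1x (-0.10 ± 0.07) and Rxrg (0.07 ± 0.05), none past the threshold. The intervals of Nr1h3 and Rxra both include 0.

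Oxysterols, the ligands of LXR, are made and broken down by enzymes of which 9 of 10 listed were measured, 5 of them lower and 4 higher (median log2 difference -0.02). None passed limma's adjusted or unadjusted threshold. Hsd3b7, an enzyme of bile acid synthesis that acts on hydroxylated sterols, differed by -0.18 ± 0.09 (log2 difference ± SE). Cyp27a1, the mitochondrial sterol side-chain hydroxylase, differed by 0.13 ± 0.12, and Cyp7b1, an oxysterol hydroxylase, by -0.35 ± 0.34.

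Among the transporters, Abca1 (chromosome 4, 53030789 to 53159988) had a slightly lower mean in treated livers. Its log2 signal was 9.82, 9.95, 9.78 and 9.80 in control replicates 1 to 4 and 9.69, 9.87, 9.67 and 9.68 in treated replicates 1 to 4. Treated replicates 1, 3 and 4 lay below all controls, and treated replicate 2 lay above 3 of the 4 controls. The means were 9.84 ± 0.08 and 9.73 ± 0.10 (SD, n = 4 each), a fold of 0.927, and the log2 difference was -0.11 ± 0.06 (limma adjusted p = 0.759, unadjusted p = 0.117). The 95% interval ran from -0.25 to 0.03 on the log2 scale. Without control replicate 2 the difference was -0.07. Without treated replicate 2 it was -0.16, with an unadjusted limma p of 0.022.

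The Abca1 promoter is shown because it is the only one of 9 promoter windows, from 7 of the 9 genes, in which a match to the LXR element was found. The element searched is the direct repeat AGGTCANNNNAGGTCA, on both strands, with up to 3 mismatches over its 12 fixed letters. A match of that quality occurs in 21.9% of the 32851 RefSeq promoter windows of 300 bases, and an exact match in 5 of them. The window is chr4:53159846-53160145 (GRCm38.p6, minus strand, 250 bases before to 50 after the start), with the match in capitals, 67 to 52 bases before the start and on the opposite strand.
Abca1 promoter: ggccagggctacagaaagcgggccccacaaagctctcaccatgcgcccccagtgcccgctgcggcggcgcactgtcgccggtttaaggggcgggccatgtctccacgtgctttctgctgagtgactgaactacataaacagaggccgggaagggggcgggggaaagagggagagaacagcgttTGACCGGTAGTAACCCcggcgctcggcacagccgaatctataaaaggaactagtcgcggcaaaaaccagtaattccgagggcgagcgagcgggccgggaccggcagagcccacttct
Read along the strand of the motif the match is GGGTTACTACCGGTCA. It describes the letters of the window and does not show binding in these livers.

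Abcg1 (chromosome 17, 31057694 to 31117984), which moves cholesterol within cells and to HDL and is prominent in macrophages, was the only gene of the 6 with a higher mean in treated livers. Its log2 signal was 7.06, 7.15, 6.75 and 7.17 in control replicates 1 to 4 and 7.16, 6.92, 7.34 and 7.13 in treated replicates 1 to 4. The groups overlapped widely, with 1 treated liver above and 0 below the range of the controls. The means were 7.03 ± 0.19 and 7.14 ± 0.17 (SD, n = 4 each), and the log2 difference was 0.11 ± 0.11 (95% interval -0.15 to 0.36, limma adjusted p = 0.889). It shrank to 0.01 without control replicate 3 and to 0.04 without treated replicate 3. Its signal exceeded 89.9% to 94.4% of the 5222 rows of negative control probes on its array, depending on the liver, whereas the other 5 genes exceeded at least 95.3% on every array.

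Macrophage markers were read beside Abcg1 in the same livers. The score of 16 macrophage and Kupffer cell markers, the mean over genes of the signal minus the gene's mean over the 8 arrays, was -0.15, 0.02, -0.77 and 0.03 in control replicates 1 to 4. In treated replicates 1 to 4 it was 0.63, -0.24, 0.32 and 0.16. Control replicate 3 had the lowest value of both measures among controls, and treated replicate 2 the lowest of both among treated livers. The order is not particular to macrophage markers, since the neutrophil and lymphocyte scores were also lowest in these livers within their groups. They were -0.40 (neutrophil) and -0.16 (lymphocyte) in control replicate 3, and -0.35 and -0.04 in treated replicate 2. The macrophage markers were higher in treated livers in 15 of 16 genes, 4 of them at an unadjusted limma p under 0.05 and 0 at the adjusted threshold. Among all genes 4.26% were called higher at the unadjusted threshold. Of the defining markers Ms4a7, 1 of the 4 called, stayed below the median of the negative control rows on every array. Only 4 of the 16 lay above the 95th percentile of those rows on every array. In whole liver RNA a change in the number of cells of a type and a change in RNA per cell cannot be told apart, and the part of macrophages in the Abcg1 values was not tested.

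Abcg5 (chromosome 17, 84658174 to 84683011) and Abcg8 (chromosome 17, 84676302 to 84700333) encode the paired transporter subunits of the canalicular membrane and lie head to head. In the RefSeq table the Abcg5 start at 84683011 and an Abcg8 start at 84683121 point away from each other, 110 bases apart. The promoter windows of these starts share 209 bases, chr17:84682962-84683170, shown on the plus strand. Treated replicates 1 and 4 were below all controls in both genes, while the control livers were ordered differently in each. The part of the shared bases in these values was not tested. Capitals mark the 109 bases between the starts.
Abcg5 and Abcg8 shared promoter: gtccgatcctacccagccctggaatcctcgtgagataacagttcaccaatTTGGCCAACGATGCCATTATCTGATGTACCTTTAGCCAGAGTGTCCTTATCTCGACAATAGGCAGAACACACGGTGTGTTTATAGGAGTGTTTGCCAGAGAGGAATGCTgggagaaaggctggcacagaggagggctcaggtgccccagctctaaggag
No match to the LXR element within 3 mismatches was found in the windows of either gene, a second Abcg8 start included, which says only that these letters are not in those windows. The 2 annotated genes overlap between 84676302 and 84683011 on opposite strands, and which bases the probe sets cover was not examined.

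The pair differed more between treated livers than between groups. Abcg5 was at 9.45, 9.47, 9.54 and 9.44 in control replicates 1 to 4 and at 9.10, 9.54, 9.46 and 8.83 in treated replicates 1 to 4 (log2 signal). Control livers lay within 0.10 of each other, and treated livers spread over 0.71, with replicates 1 and 4 below every control and replicates 2 and 3 at control level. Abcg8 was at 9.30, 9.43, 9.68 and 9.54 in control and at 9.18, 9.61, 9.61 and 8.75 in treated replicates 1 to 4. The same treated livers, 1 and 4, were below all controls, and the treated range was 0.86 against 0.38 in controls.

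Between groups Abcg5 differed by -0.24 ± 0.14 (log2, 95% interval -0.56 to 0.08, limma adjusted p = 0.761) and Abcg8 by -0.20 ± 0.18 (-0.62 to 0.22, adjusted p = 0.864). The means of Abcg5 were 9.48 ± 0.05 and 9.23 ± 0.33, and those of Abcg8 9.48 ± 0.16 and 9.29 ± 0.41 (SD, n = 4 each). Treated replicate 4 carried most of both estimates, which were -0.11 for Abcg5 and -0.02 for Abcg8 without it. Whether the spread itself differed between the groups was not tested.

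**Figure D2:**
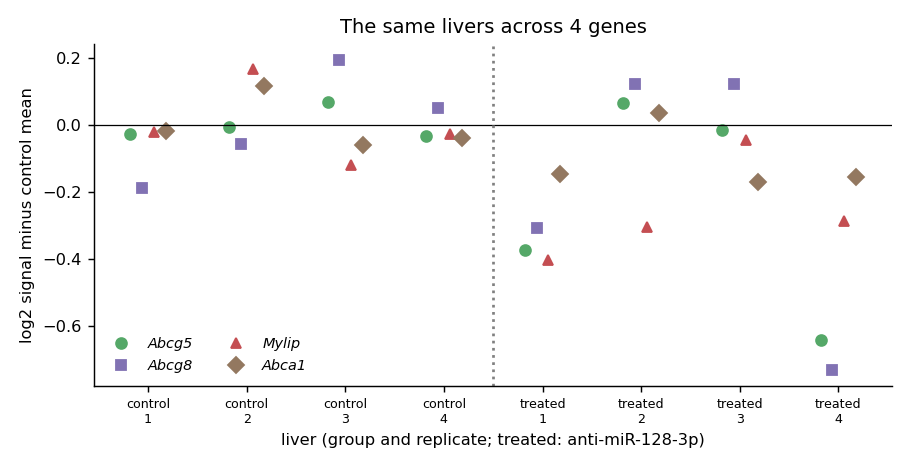
Log2 signal minus the mean of the 4 control livers (y axis) for Abcg5, Abcg8, Mylip and Abca1 in each liver (x axis, group and replicate). Abcg5 and Abcg8 lie close together in treated replicates 1 and 4, below all control values of each gene, while Mylip is lower in treated replicates 1, 2 and 4.

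Hnf4a, a hepatocyte transcription factor known to act on the region between Abcg5 and Abcg8, was lowest of all 8 livers in treated replicates 1 and 4, at 10.12 and 10.22 (log2 signal). It was at 10.32 and 10.49 in treated replicates 2 and 3 and between 10.36 and 10.71 in controls. Its group difference was -0.24 ± 0.10 (limma adjusted p = 0.606, unadjusted p = 0.033). The pattern was not particular to Hnf4a. Tat, another hepatocyte marker, was also lowest of all 8 livers in treated replicates 1 and 4, at 12.40 and 12.74. So was the transporter gene Abca6, at 10.57 and 10.54. The score of 11 measured hepatocyte markers, Hnf4a among them, was -0.10 in treated replicate 1 and -0.07 in treated replicate 4, against 0.06 and 0.05 in the other treated livers and -0.07 to 0.07 in controls. Albumin (Alb) differed by 0.04 ± 0.05. The part of these values in the Abcg5 and Abcg8 pattern was not tested.

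Mylip (chromosome 13, 45389742 to 45411940) had the smallest p of the 6 measured genes, and ranked 944 by p among all 30627 genes. Its log2 signal was 7.95, 8.14, 7.85 and 7.94 in control replicates 1 to 4 and 7.57, 7.67, 7.93 and 7.68 in treated replicates 1 to 4. Treated replicates 1, 2 and 4 lay below all controls and treated replicate 3 lay within their range, so that all 4 treated livers were below the control mean. The means were 7.97 ± 0.12 and 7.71 ± 0.15 (SD, n = 4 each), a fold of 0.835. The log2 difference was -0.26 ± 0.09, with a 95% interval from -0.46 to -0.06 and an unadjusted limma p of 0.0159, and it did not pass the correction over all genes (adjusted p = 0.516). Leaving out single livers moved it between -0.33 and -0.20.

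The lipoprotein receptors that MYLIP acts on, and other genes of that step, were measured in 6 of 9 listed genes, 4 lower and 2 higher. None passed limma's adjusted or unadjusted threshold. Vldlr, the VLDL receptor and a substrate of MYLIP, was at 6.97, 7.29, 6.86 and 5.87 in control and at 6.47, 5.54, 6.56 and 5.83 in treated replicates 1 to 4 (log2 signal). Control replicate 4 lay among the lower treated livers, so the groups overlapped, and the difference was -0.65 ± 0.32 (limma adjusted p = 0.709). Lrp8, the other MYLIP substrate measured, differed by 0.04 ± 0.05. Usp2, a deubiquitinase that opposes MYLIP, differed by -0.23 ± 0.19, and Ube2d3, one of the ubiquitin-conjugating enzymes it works with, by -0.04 ± 0.05.

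Other genes tied to LXR, most of them as induced targets, were divided between the directions. Of 20 listed, 15 were measured, 8 lower and 7 higher, with a median log2 difference of -0.04. At an unadjusted limma p under 0.05 there were 3 higher and 1 lower, and 0 passed after adjustment. The unadjusted shares over all genes were 4.26% higher and 3.37% lower. Cyp7a1, which starts bile acid synthesis and is an LXR target in mice, was higher by 1.42 ± 0.43 (adjusted p = 0.460), at 8.92, 8.42, 10.19 and 10.37 in control and 11.21, 10.82, 10.31 and 11.24 in treated replicates 1 to 4. Treated replicate 3 lay below control replicate 4, so the groups overlapped. Fasn, which makes palmitate, was higher by 0.31 ± 0.10 (limma adjusted p = 0.504). Apoe, an LXR target in macrophages, differed by 0.01 ± 0.05.

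Among the same 15 genes, Abcb4, the canalicular phospholipid exporter that works beside ABCG5 and ABCG8, differed by -0.25 ± 0.09 (limma adjusted p = 0.579). Aebp1, described as a repressor of LXR alpha and not as its target, was the only gene of this list whose groups did not overlap, and it was higher by 0.33 ± 0.13 (adjusted p = 0.579). Over all genes, 2.52% separated with treated livers higher. Aebp1 lay below the 95th percentile of the negative control rows on every array. It was at 5.50 to 5.58 in controls and at 5.65, 5.63, 6.25 and 5.96 in treated replicates 1 to 4. The score of 10 stellate cell markers was also highest in treated replicates 3 and 4, at 0.80 and 0.24, against -0.31 to -0.10 in controls and -0.10 and -0.12 in the other treated livers. Of the 10 markers 7 were higher in treated livers, with the largest differences in the collagen genes Col1a1 (1.62) and Col3a1 (1.22). The other 3 were lower: Lrat (-0.06), Reln (-0.29) and Dcn (-0.10). The part of stellate cells in the Aebp1 values was not tested. Srebf1, the LXR target that drives lipogenesis, is not analysed here.

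**Figure D3:**
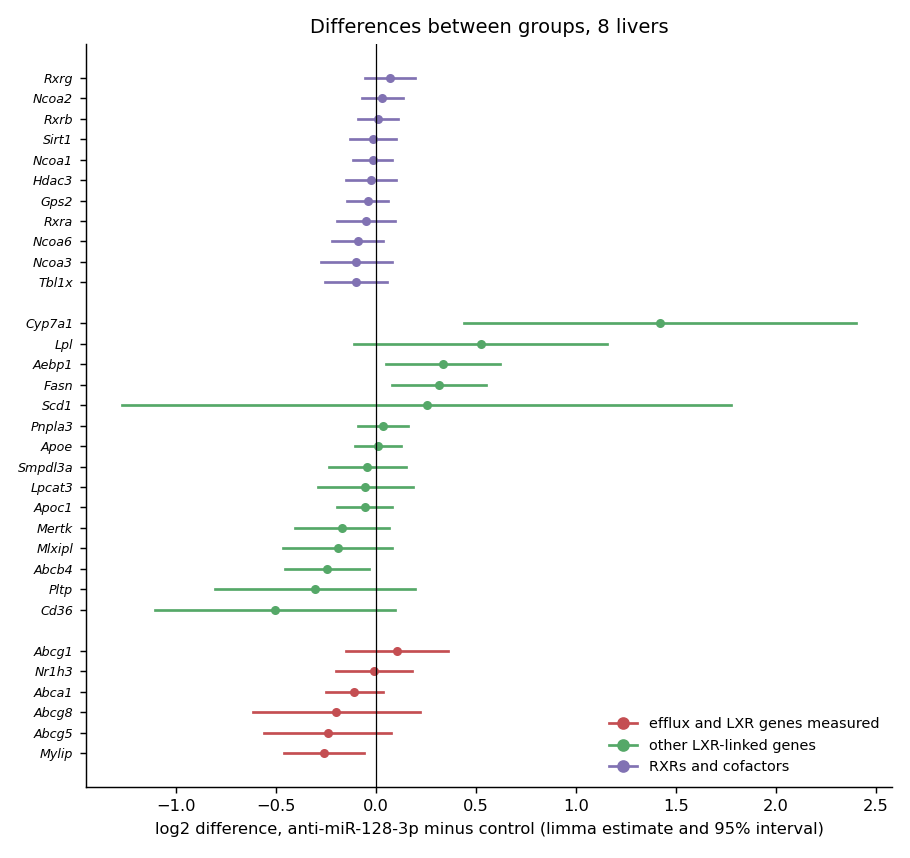
Log2 difference between groups (x axis, points) with limma's 95% interval (lines) for the 6 measured sterol efflux and LXR genes, 15 other LXR-linked genes and 11 RXR and cofactor genes (y axis). Of the 6, the interval of Mylip alone lies wholly below 0, and Cyp7a1 has the highest estimate at 1.42.

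The other ABCA and ABCG transporters were measured in 13 of 14 listed genes, 6 lower and 7 higher, with a median log2 difference of 0.01. Abca6, a liver transporter whose substrate is less well defined, differed by -0.22 ± 0.07 (limma unadjusted p = 0.0146, adjusted p = 0.508) and was the only one at an unadjusted p under 0.05. It was at 10.93, 10.91, 10.94 and 10.76 in control and 10.57, 10.71, 10.82 and 10.54 in treated replicates 1 to 4, and treated replicate 3 overlapped the controls. At the unadjusted threshold 3.37% of all genes were called lower and 4.26% higher. Abca5 differed by -0.10 ± 0.05 and Abca3 by 0.22 ± 0.13. Abca4, Abca12 and Abca13 stayed below the median of the negative control rows on all 8 arrays.

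Beside the SOAT enzymes, which form sterol esters for storage, a further list was drawn up around sterol ester hydrolysis, sterol carriers and sterol uptake. All 16 of its genes were measured, 11 lower and 5 higher (median log2 difference -0.03). None passed after adjustment, and at an unadjusted limma p under 0.05 there was 1 in each direction. By the same rule 4.26% of all genes were called higher and 3.37% lower. Npc2, the lysosomal cholesterol carrier, was at 6.38 to 6.47 in controls and at 6.56 to 6.80 in treated livers, without overlap (0.26 ± 0.06, limma adjusted p = 0.239). Npc2 lay below the 95th percentile of the negative control rows on every array. Lcat, which esterifies cholesterol on HDL, was at 12.30 to 12.54 in controls and 12.07 to 12.25 in treated livers, also without overlap (-0.23 ± 0.07, adjusted p = 0.425). Such separation was found in 2.52% of all genes with treated livers higher and in 1.89% with treated livers lower. Nceh1, a neutral cholesterol ester hydrolase, differed by -0.26 ± 0.11 (adjusted p = 0.655). Both Npc2 and Lcat were already among the genes with small p-values when these lists were drawn up.

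The genes whose profile over the 8 livers was most like that of Abca1 were sought among 18140 other protein-coding genes by the mean absolute difference of z-scored log2 signals. They were Aspg (0.170), Cinp (0.181) and Tspan8 (0.197). As for every gene of the series, none was past limma's adjusted threshold. For Mylip they were Smim31 (0.186), Ddr2 (0.214) and Sec61a2 (0.222). The measure includes the difference between groups, so the lower treated means of all these genes follow from the ranking. Mylip ranked 994 in likeness to Abca1 (0.618), Abcg5 ranked 1148, Abcg8 4143, Nr1h3 8640 and Abcg1 15634. Such rankings describe these 8 arrays only.

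The arrays carried the profile of liver. All 11 measured hepatocyte markers lay above the 95th percentile of the negative control rows on every array. Median gene signals ranged from 5.04 to 5.12 over the 8 arrays. Sinusoidal endothelial markers were lower in treated livers in 9 of 10 genes, 3 of them at an unadjusted limma p under 0.05. Of all genes, 50.9% were lower and 3.37% were called lower by that rule. Bile duct markers were lower in 5 of 6, with a median log2 difference of -0.02. None of the bile duct markers lay above the 95th percentile of the negative control rows on every array. Epcam and Cftr stayed below the median of those rows on every array. Neutrophil markers were lower in 7 of 8, a direction that rested on control replicate 1: without it, a comparison added after seeing the data, 8 of 8 were higher. Stellate markers were higher in 7 of 10, with 3 higher (Col1a1, Col3a1 and Lum) and 1 lower (Reln) at an unadjusted limma p under 0.05, and the groups did not overlap in Col1a1 (1.62 ± 0.41) and Col3a1 (1.22 ± 0.35). Over all genes, 2.52% separated without overlap with treated livers higher, and 4.26% were called higher at the unadjusted threshold. Lymphocyte markers were higher in 6 of 9. Of intestinal and pancreatic markers 3 were lower and 4 higher, and of adipocyte markers 1 was lower and 4 higher. No gene of any of these lists passed limma's adjusted threshold.

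**Figure D4:**
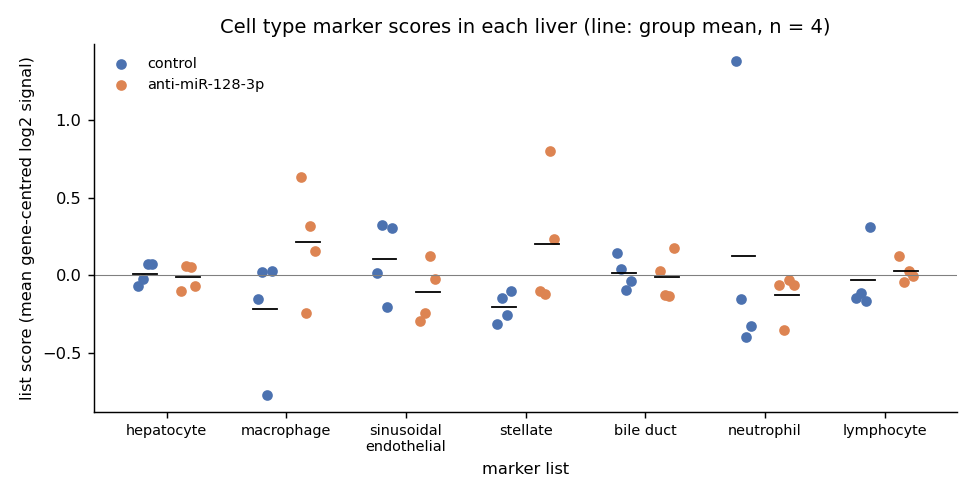
Score of each cell type marker list (y axis, mean gene-centred log2 signal) in each liver, by list on the x axis and group by colour, with lines at the group means (n = 4). The scores of the groups overlap in all 7 lists shown, and control replicate 1 stands at 1.38 in the neutrophil list.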

How the data were processed

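The deposited values are log2 signals that the authors obtained with RMA, which corrects background, equalizes arrays by quantiles and summarizes probes, per the submitters' processing notes. The array is an Affymetrix one with biotin-labelled total RNA, per the labels' protocols. The sources used here give no software version or annotation build. Of 72688 rows, 6732 control rows were left out. The platform annotation lists 32750 of the 65956 transcript probe sets, and 31080 of these name exactly 1 gene, with symbols updated through RefSeq (GRCm38.p6). For genes with several, the brightest on average over the 8 arrays was kept. Each gene of the 6 had 1 probe set. Groups were compared with limma 3.58.1 (R 4.3.3; lmFit, eBayes, no covariate, no filter), two-sided, with Benjamini-Hochberg adjustment over 30627 genes. Python 3.11.15, pandas 2.3.3 and matplotlib 3.10.9 made tables and plots. The fit was tested on simulated data. Limma's p-values weigh the difference between group means against the spread of arrays within groups, which eBayes moderates across genes.

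The genes and lists were chosen with earlier results of these data known. All 9 genes were to be described, with up to 3 genes by smallest p from each further list, Rxra, Apoe, Srebf1, Cyp7a1 and a further gene that is not reported here whatever their p, and 3 like genes for Abca1 and for the gene with the smallest p. Alb, Lrp8 and the microRNA were added after values were seen. Alternatives were another moderation, array weights, filters on dim genes, means of probe sets, every probe set alone, renormalization, a replicate block and leaving out arrays.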

Additional observations from a re-analysis of the deposited data

Results flagged for a closer look

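Of the 44 groups of 4 livers examined, 1 for each gene measured or list score in each group, 5 held a liver far from the other 3 by Dixon's criterion, which chance meets in about 1 of 20 groups. Abca1 was at 9.87 (log2 signal) in treated replicate 2, above the other treated livers at 9.67 to 9.69. The score of the oxysterol enzymes was 0.24 in treated replicate 3, above the other treated livers. Neutrophil markers scored 1.38 in control replicate 1, above the other controls, and -0.35 in treated replicate 2, below the other treated livers. The lymphocyte score was 0.31 in control replicate 4, above the other controls.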

How the results depend on the processing

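No gene of the 6 passed limma's adjusted threshold under any of the alternatives. Abca1, Abcg5, Abcg8 and Mylip stayed lower and Abcg1 higher throughout. Nr1h3 ranged from -0.093 to 0.034 when single livers were left out and changed sign, to 0.034 without control replicate 1, 0.030 without control replicate 4, 0.0017 without treated replicate 1 and 0.0065 without treated replicate 3. The number of the 6 at an unadjusted limma p under 0.05 was 1 in the main comparison and 2 (Abca1 and Mylip) with quantile normalization, where 8.07% of all genes were called. It was also 2 with the replicate block, in which the replicate number is a term, with 7.35% of all genes called. Leaving out single livers gave 1 to 3, the 3 being Abca1, Abcg5 and Mylip without treated replicate 2, where 8.52% of all genes were called. Their median log2 difference ran from -0.20 to -0.06, the latter without treated replicate 4. Over all genes leaving out single livers gave 0 to 1 calls, the 1 being Irgm1 without control replicate 4 (adjusted p = 0.0375). Same-numbered livers did not deviate together (r across genes of -0.03, -0.02, -0.08 and -0.12 for numbers 1 to 4), so the numbers were not taken as pairs. With 4 livers a group, the intervals given set the precision.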
